A study of Mus musculus with 20 samples.

Results

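The 20 libraries of mouse gastrocnemius, a calf muscle, were divided by the amount of Myh7 transcript they held. Myh7 encodes the myosin heavy chain of slow, type 1 muscle fibres. A library was called slow-rich when Myh7 reached 300 CPM (the count divided by the library total and multiplied by 1000000) or more, and slow-poor when it stayed under 50 CPM. By this rule 11 libraries were slow-rich, 5 were slow-poor and 4 lay between the cuts and were left out of the comparison. The sides were thus chosen by the measured Myh7 level and not by the study's design, so every difference between the sides is an association within these libraries.

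The study set acute exercise against rest in mice whose muscle Bmal1 gene could be deleted, with 5 libraries in each of 4 groups. All animals carried the genotype Cre+:iMSBmal1 fl/fl, so the vehicle controls also held Cre and the floxed alleles. The labels call the other animals knockout, sampled at rest or 1 h after 30 min on a treadmill, as the vehicle animals were. The labels conflict for the exercised knockout libraries: their titles say acute exercise, but their column headers and descriptions say exercise trained. They were taken here as acute exercise. All muscles were taken at ZT13, which is 13 h after lights on. The labels name neither the promoter that drives Cre, nor the agent that induces it, nor the animals' age. They do not say whether each library is a separate animal, so p-values measure the spread between these libraries, which may be technical. Arntl, the symbol of Bmal1, was not lower in the libraries labelled knockout. Rescaled with TMM, a factor that evens out differences in composition between libraries, it read from 9.73 to 14.9 CPM at rest with vehicle and from 12.1 to 16.4 CPM with the knockout label. After exercise it read from 7.88 to 21.3 and from 11.4 to 21.2 CPM, and a count per gene does not show whether a part of the gene is deleted.

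The sides were spread unevenly over the groups. Knockout at rest held 4 slow-rich libraries and 0 slow-poor ones, and vehicle at rest held 3 and 1. Both exercised groups held 2 slow-rich and 2 slow-poor libraries, and in both the slow-poor ones were replicates 2 and 4. Each group had 1 library between the cuts. The group was therefore a covariate in the comparison of the sides, and the knockout at rest group added nothing to the difference between sides itself. Total counts ran from 8045154 to 11269812 per library, and the sides overlapped in depth.

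Skeletal muscle is a mixture of fibre types, each of which makes its own set of contractile proteins. Slow type 1 fibres use the Myh7 myosin and burn fat and sugar with oxygen, while fast type 2A, 2X and 2B fibres use Myh2, Myh1 and Myh4 and rely in that order more and more on glycolysis. The mouse gastrocnemius is mostly fast, with a deeper red region that holds the slow and oxidative fibres. In bulk RNA, fewer fibres of a type and less of its RNA in each fibre cannot be told apart.

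Among the genes of the lists described below, the 3 slow troponins, the calcium switch of the slow thin filament, followed Myh7 most closely over the 20 libraries. For that reason their promoters are shown here. The sequences are from RefSeq on GRCm38.p6, they are the 250 bases before each listed transcript start in the direction of transcription, and capitals mark E-boxes (CANNTG), the letters that MyoD family factors bind. Tnnt1 lies on the minus strand at chr7:4515976-4516225, Tnnc1 on the plus strand at chr14:31208062-31208311 and Tnni1 on the plus strand at chr1:135799171-135799420, where it is the first of 2 windows listed.
Tnnt1: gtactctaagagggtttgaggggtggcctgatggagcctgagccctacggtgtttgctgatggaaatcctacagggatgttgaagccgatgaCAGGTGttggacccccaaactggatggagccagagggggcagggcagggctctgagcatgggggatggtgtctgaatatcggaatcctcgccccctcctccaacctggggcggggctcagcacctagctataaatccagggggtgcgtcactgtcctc
Tnnc1: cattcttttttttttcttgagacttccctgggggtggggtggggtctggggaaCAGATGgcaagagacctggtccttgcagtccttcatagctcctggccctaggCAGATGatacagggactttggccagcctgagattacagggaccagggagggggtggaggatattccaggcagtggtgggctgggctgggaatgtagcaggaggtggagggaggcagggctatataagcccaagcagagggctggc
Tnni1: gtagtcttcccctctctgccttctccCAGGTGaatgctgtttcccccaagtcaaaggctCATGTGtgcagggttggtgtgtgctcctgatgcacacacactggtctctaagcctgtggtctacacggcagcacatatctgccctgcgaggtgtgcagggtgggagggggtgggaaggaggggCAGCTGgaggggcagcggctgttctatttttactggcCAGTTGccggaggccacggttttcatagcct
The windows held 1, 2 and 4 E-boxes. Over the slow contractile and calcium lists described below, all 18 windows of the 14 matched genes held at least 1 E-box on either strand, against 73.3% of 15 windows of the fast lists and 66.2% of all 32851 windows of this length. The TATA box letters TATAAA stood in 22.2% of the slow windows, 20% of the fast and 12.4% of all windows, on either strand. The MCAT letters CATTCC stood in 11.1% of the slow windows, 40.0% of the fast and 12.6% of all. The MEF2 motif, searched by its name as 1 consensus, stood in 11.1% of the slow windows, 20% of the fast and 2.92% of all. The AAGGTCA letters of estrogen-related receptor sites stood in 11.1% of the slow windows, 0 of the fast and 4.08% of all. The TATAAA letters can lie inside a MEF2 match. All are letter matches, given as a description.

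Myh7 itself chose the libraries and is given without a test. The slow-poor libraries read 0 CPM (vehicle exercised replicate 2), 1.10 CPM (knockout exercised replicate 2), 1.71 CPM (knockout exercised replicate 4), 7.44 CPM (vehicle at rest replicate 5) and 8.54 CPM (vehicle exercised replicate 4). Values of slow-poor libraries below are always in this order. The slow-rich libraries ran from 349 to 1266 CPM. The nearest library above the lower cut held 50.1 CPM and the nearest below the upper cut held 206 CPM. In the library with no Myh7 count among 9590090, a share of up to 0.313 CPM is still possible at the limit of 3 counts, which covers counting error only. From here on levels are TMM-scaled CPM unless stated.

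Across the transcriptome, 2548 of 14738 genes tested differed between the sides at an adjusted p under 0.05, which is 17.3% (edgeR's quasi-likelihood test with Benjamini-Hochberg adjustment, groups as covariate, 11 residual degrees of freedom, Myh7 left out). Of these, 1412 genes (9.58% of those tested) were higher in slow-rich libraries and 1136 (7.71%) were lower. The higher genes moved further: 453 rose by 1 or more on the log2 scale against 64 that fell by as much, and 178 rose by 2 or more against 7. In 483 genes (3.28%) no slow-rich library overlapped a slow-poor one, 335 of them higher and 148 lower. The median gene differed by -0.0063 on the log2 scale. Without composition scaling the median became 0.0998 and 78.6% of 2505 called genes were higher, against 55.4% in the comparison above, so calls of small falls depend on the scaling. Among genes named below, the calls of Tnni2, Ryr1, Arntl, Bhlhe41, Fam174b, Myog, Tbx15, Hoxd9, Hoxa10 and Hoxc10 were lost there with the same direction. Exons of Mb, Atp2a2, Mybpc1, Pln, Lgi1, Bdh1, Homer2, Ckmt2, Acadvl, Fabp3, Cox4i1, Maf, Casq1, Atp2a1, Aldoa, Gpd1, Phkg1, Mybpc2, Tnnc2, Ryr1 and Bhlhe41 overlap those of an opposite-strand gene called in the same direction, so their reads may be shared with it. Groups counted alone gave fewer calls: 1449 in vehicle libraries, 704 in knockout-labelled libraries, 2189 after exercise and 7 at rest, where 1 slow-poor library was set against 7 slow-rich ones.

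Slow contractile genes were the most strongly separated. Of 12 slow sarcomere genes tested, 11 were higher in slow-rich libraries and none was lower, against 9.58% of all genes higher. In all 11 the sides did not overlap, beside 3.28% of all genes in either direction. The log2 fold changes of these 11 ran from 2.54 to 6.91, with a list median of 4.2 that includes the uncalled member. The slow troponins came first. Tnnt1, slow troponin T, read 0, 0.754, 0.404, 2.66 and 2.26 CPM in the slow-poor libraries and from 89.1 to 311 CPM, with a median of 166, in the slow-rich ones. Its log2 fold change was 6.91 ± 0.59 (SE, adjusted p = 2.91e-05). The 3 exercised slow-poor libraries with under 2 CPM of Myh7 also held the least Tnnt1, and no slow-poor library came near the lowest slow-rich one.

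Tnnc1, the calcium-binding troponin C of slow and cardiac muscle, read 0, 0.216, 0.404, 1.66 and 2.05 CPM against 40.8 to 183 CPM with a median of 95.7. It differed by 6.62 ± 0.65 on the log2 scale (adjusted p = 5.91e-05). Tnni1, slow troponin I, read 0.114, 0.323, 0.269, 1.33 and 1.51 CPM against 36.8 to 201 CPM with a median of 80.2, a log2 fold change of 6.58 ± 0.63 (adjusted p = 5.26e-05). Mean levels of the slow-poor libraries were 0.697% of the slow-rich mean for Tnnt1, 0.856% for Tnnc1 and 0.807% for Tnni1. Tpm3, which encodes the slow tropomyosin but also a tropomyosin made in most cells, kept 6.56% of the slow-rich mean. It read 12.8, 15, 13.6, 17.2 and 17.3 CPM against 120.4 to 385 CPM with a median of 219, a log2 fold change of 3.73 ± 0.31 (adjusted p = 2.02e-05).

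The light chains that sit on the Myh7 myosin behaved like the troponins. Myl2, the regulatory light chain, read 0.455, 1.51, 0.269, 3.66 and 5.38 CPM against 103 to 281 CPM with a median of 183 (log2 fold change 6.26 ± 0.55, adjusted p = 3.31e-05). Myl3, the essential light chain, read 1.48, 1.62, 0.808, 11 and 15.9 CPM against 179 to 531 CPM with a median of 334 (5.73 ± 0.64, adjusted p = 0.000135). In both genes the vehicle at rest and the second vehicle exercised library, which have the most Myh7 of the slow-poor side, were also the highest of that side. Myl6b, an alkali light chain, was the member that was not called, at 0.24 ± 0.21 (adjusted p = 0.482) and with levels of 3.77 to 5.81 against 4.40 to 12.9 CPM.

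**Figure D1:**
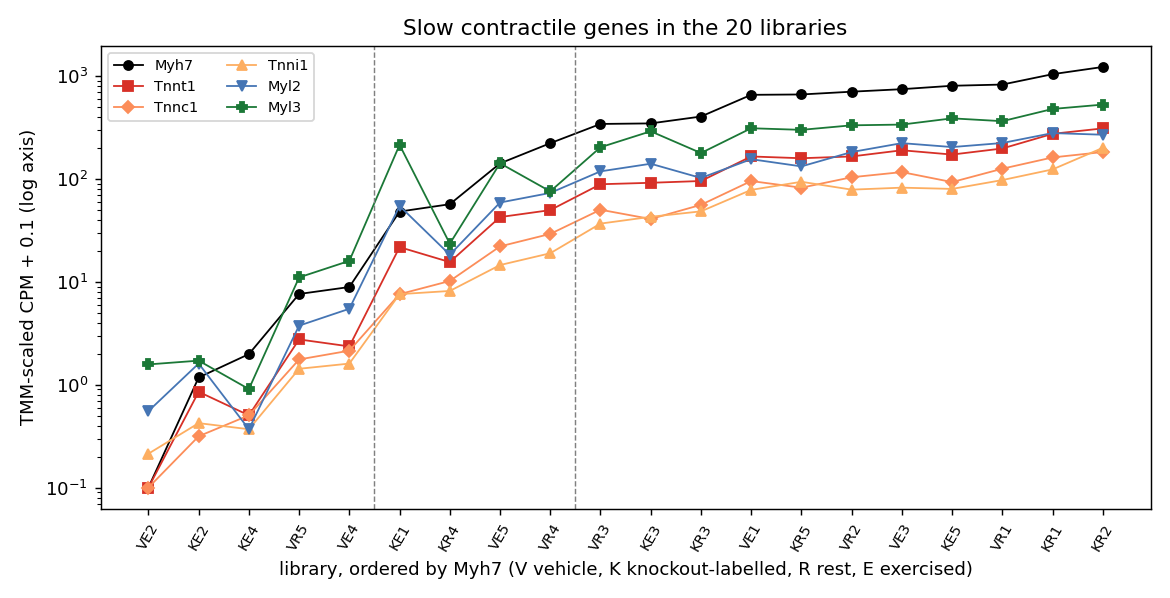
TMM-scaled CPM plus 0.1 on a log axis for Myh7 and 5 slow contractile genes in each of the 20 libraries, ordered by Myh7 and labelled by treatment (V vehicle, K knockout-labelled), state (R rest, E exercised) and replicate, with dashed lines at the cuts. The 5 slow-poor libraries stay under 16 CPM in all 5 genes beside Myh7, and the lowest slow-rich value is 36.8 CPM for Tnni1.

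The remaining slow sarcomere genes belong to the Z disc, the thick filament and the stretch response. Myoz2, a Z disc protein of slow fibres that binds calcineurin, read 2.27, 4.42, 9.03, 6.87 and 10.1 CPM against 70.4 to 198 CPM, a log2 fold change of 4.28 ± 0.39 (adjusted p = 4.06e-05). Csrp3, the muscle LIM protein, differed by 4.12 ± 0.46 and Ankrd2, a stretch-responsive ankyrin repeat protein, by 3.83 ± 0.37 (adjusted p = 0.000128 and 5.22e-05). Myh7b, a myosin related to Myh7, differed by 2.83 ± 0.34 (adjusted p = 4.64e-05) at levels of at most 14.1 CPM. Mybpc1, slow myosin-binding protein C, differed least of the 11, by 2.54 ± 0.32 (adjusted p = 0.00026). It also kept the largest share of its slow-rich mean, 19.3%, with 129.7 to 323 CPM against 738 to 2161 CPM.

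Calcium handling was split in the same direction. Of 4 genes of the slow calcium list, 3 were higher, all without overlap. Of all genes 9.58% were higher and 3.28% were without overlap in either direction. Atp2a2, the slow calcium pump of the sarcoplasmic reticulum (SERCA2), read 33.4, 42.7, 44.3, 47.9 and 57.0 CPM against 303 to 801 CPM with a median of 528. Its log2 fold change was 3.49 ± 0.27 (adjusted p = 1.45e-05). Casq2, the slow and cardiac calsequestrin that stores calcium, differed by 2.58 ± 0.38, and Pln, the pump inhibitor phospholamban, by 2.57 ± 0.57 (adjusted p = 0.000738 and 0.00549). Sln, a small pump inhibitor named sarcolipin, was not called, at 0.06 ± 0.46 with at most 7.14 CPM in either side (adjusted p = 0.949).

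Of 7 genes of the fast calcium list, 5 were lower and none higher, against 7.71% of all genes lower. Atp2a1, the fast pump SERCA1, read 30422, 31308, 32001, 33548 and 32148 CPM against 21533 to 26841 CPM, and the sides did not overlap. Its log2 fold change was -0.44 ± 0.08 (adjusted p = 0.000641). Pvalb, the calcium buffer parvalbumin of the fastest fibres, differed by -0.64 ± 0.11 and Casq1, fast calsequestrin, by -0.69 ± 0.11 (adjusted p = 0.000305 and 0.000264). Cacng1, a subunit of the voltage-gated calcium channel, read 304, 253, 359, 306 and 240.2 CPM against 108 to 232 CPM, a change of -0.85 ± 0.19 (adjusted p = 0.00691). Ryr1, the calcium release channel, differed by -0.28 ± 0.08 (adjusted p = 0.0187, lost without vehicle exercised replicate 3, at 0.0638, or vehicle at rest replicate 5, at 0.176). The slow pump thus changed by a much larger factor than the fast one.

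The fast myosins did not move as 1 group. Myh2, the myosin of type 2A fibres, read 43.0, 86.8, 122, 259.9 and 458 CPM in the slow-poor libraries and 1561 to 5092 CPM, with a median of 3845, in the slow-rich ones, a log2 fold change of 4.32 ± 0.61 (adjusted p = 0.000647). Myh1, the myosin of type 2X fibres, read 376, 504, 583, 1054 and 967 CPM against 2349 to 7848 CPM, a log2 fold change of 2.87 ± 0.39 (adjusted p = 0.000481). Myh4, the myosin of type 2B fibres, read 73410, 67602, 94433, 77964 and 65493 CPM against 35024 to 61567 CPM and was lower by -0.77 ± 0.12 (adjusted p = 0.000124). The sides did not overlap in any of the 3. In the slow-poor libraries the 2A and 2X myosin transcripts were low together with the type 1 transcript that chose them.

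Levels of different genes can be set beside each other only per length. As shares of the 4 adult myosin genes in counts per kilobase of transcript, Myh4 took 98.0 to 99.5% of the slow-poor libraries, with a median of 99.2%, and 74.9 to 93.1% of the slow-rich ones, with a median of 86.0%. Myh1 had medians of 0.701% and 7.62%, Myh2 of 0.109% and 5.86%, and Myh7 of 0.00139% and 0.917%. Myh4 thus had the largest share in every library, and Myh7 took at most 1.81% of the 4 genes in any library. On the slow-rich side Myh1 and Myh2 together took more than Myh7. These genes lie in 1 cluster of near-identical sequence apart from Myh7, so reads could be assigned to the wrong member, and Myh2 and Myh1 share exon positions with opposite-strand transcripts that were also higher.

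**Figure D2:**
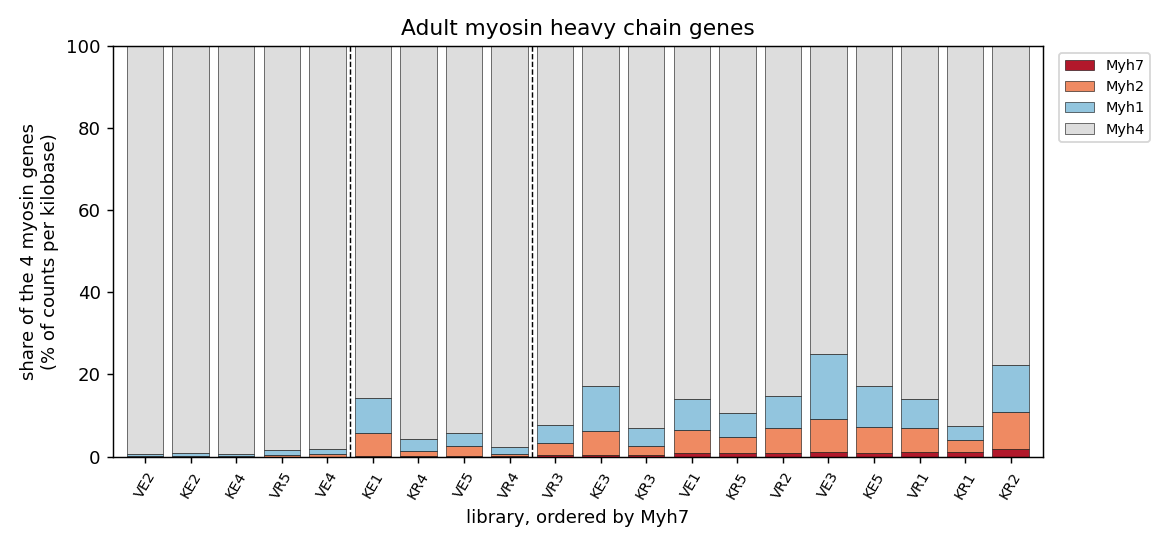
Shares of Myh7, Myh2, Myh1 and Myh4 in percent of their summed counts per kilobase, 1 stacked bar for each of the 20 libraries ordered by Myh7, with dashed lines at the cuts. Myh4 fills at least 98.0% of each slow-poor bar and between 74.9 and 93.1% of each slow-rich bar.

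The other fast sarcomere genes fell together by small factors. Of 13 in the list, 10 were lower and 2 were higher, against 7.71% and 9.58% of all genes. The 2 higher ones were Myh2 and Myh1. Actn3, the fast fibre alpha-actinin of the Z disc, fell furthest at -0.82 ± 0.12 (adjusted p = 9.93e-05), from 10873 to 14761 CPM on the slow-poor side and 5036 to 11308 CPM on the slow-rich side, with a slight overlap. Mybpc2, fast myosin-binding protein C, read 8359, 7877, 8844, 8504 and 7332 CPM against 3666 to 6497 CPM without overlap and differed by -0.77 ± 0.13 (adjusted p = 0.000291). The fast light chains Myl1 and Mylpf differed by -0.69 ± 0.13 and -0.59 ± 0.12 (adjusted p = 0.00107 and 0.00146). The fast troponins Tnnc2, Tnnt3 and Tnni2 differed by -0.43 ± 0.10, -0.39 ± 0.09 and -0.28 ± 0.09 (adjusted p = 0.00409, 0.00439 and 0.0295), a far smaller change than that of their slow counterparts. The Tnni2 call was lost in 7 of 16 fits that each left out 1 library (adjusted p up to 0.108). Mylk2, the kinase of the fast light chain, was not called at -0.37 ± 0.14 (adjusted p = 0.0708).

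Of 4 myosins outside the adult limb set, 2 were also higher, at very low levels, beside 9.58% of all genes higher. These 2, Myh6 and Myh13, passed the filter against low counts only through slow-rich libraries, so their calls are given as a description. Myh6, the cardiac alpha myosin, had at most 3 counts in any slow-poor library, and its slow-rich mean was at least 7.50-fold higher than the level of 3 counts per library. Myh13, the extraocular myosin, likewise had at most 2 counts and a slow-rich mean at least 7.26-fold above that limit. Myh6 lies beside Myh7 and is nearly identical to it in sequence, so its reads may be shared with Myh7. The embryonic Myh3 and neonatal Myh8 were not called, at 2.13 ± 0.70 and 0.48 ± 0.39 (adjusted p = 0.0537 and 0.445).

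Regulators of fibre type and oxidative metabolism formed a mixed list of 28 genes. Of these 10 were higher, 4 lower and 14 not called, beside 9.58% of all genes higher and 7.71% lower. The orphan nuclear receptors that drive mitochondrial and oxidative genes were among the higher ones. Esrrb read 0.114, 1.08, 1.89, 1.44 and 2.26 CPM against 6.08 to 14.5 CPM (log2 fold change 3.02 ± 0.36, adjusted p = 5.86e-05). Esrrg read 5.57, 6.57, 4.31, 5.65 and 12.6 CPM against 16 to 38.9 CPM (2.09 ± 0.30, adjusted p = 0.000553). Ppara, the fatty acid sensing receptor, read 3.75, 4.96, 3.91, 3.44 and 5.49 CPM against 13.3 to 41.2 CPM (2.69 ± 0.19, adjusted p = 3.48e-07). None of these 3 overlapped between the sides.

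Vgll2, a TEAD cofactor of muscle, differed by 2.67 ± 0.30 (adjusted p = 0.000137), and its highest slow-poor value, 25.4 CPM, lay at the lowest slow-rich value. Ppargc1a, the coactivator PGC-1alpha, differed by 1.80 ± 0.30 (adjusted p = 0.00152) with an overlap, 22.6 to 71.7 CPM against 35.7 to 267 CPM, and is known as a gene that exercise raises. Rcan1, a calcineurin-responsive inhibitor of calcineurin, read 62.4 to 100.5 CPM against 101 to 239 CPM and differed by 1.10 ± 0.22 (adjusted p = 0.00497). Prox1, a homeobox factor of slow fibres, differed by 1.17 ± 0.37 (adjusted p = 0.0318) at levels of at most 3.71 CPM, and this call was lost in 6 of 16 fits that each left out 1 library (adjusted p up to 0.116). Prox1 also passed the filter against low counts only through slow-rich libraries. Fnip1, Ppargc1b and Tead1 were higher by 0.86, 0.75 and 0.56.

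The lower regulators were Maf, Mafa, Myog and Tbx15. Maf, a large Maf factor that promotes the type 2B program, read 441, 369.6, 362, 281 and 493 CPM against 165 to 286 CPM and differed by -0.74 ± 0.09 (adjusted p = 1.77e-05). Mafa, its relative, differed by -0.59 ± 0.12, Myog, the myogenic factor myogenin, by -0.69 ± 0.20, and Tbx15, a T-box factor of glycolytic fibres, by -0.32 ± 0.09 (adjusted p = 0.00256, 0.0212 and 0.0181). The last 2 calls were each lost in 4 of 16 fits with 1 library left out (adjusted p up to 0.0665), and without composition scaling. Sox6, which represses slow genes, was not called at -0.21 (adjusted p = 0.0509), nor was Myod1 at -0.71 (adjusted p = 0.053). Eya1, Nfatc1, Mef2a, Mef2c and Mef2d had log2 fold changes between -0.14 and 0.17 with no call.

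**Figure D3:**
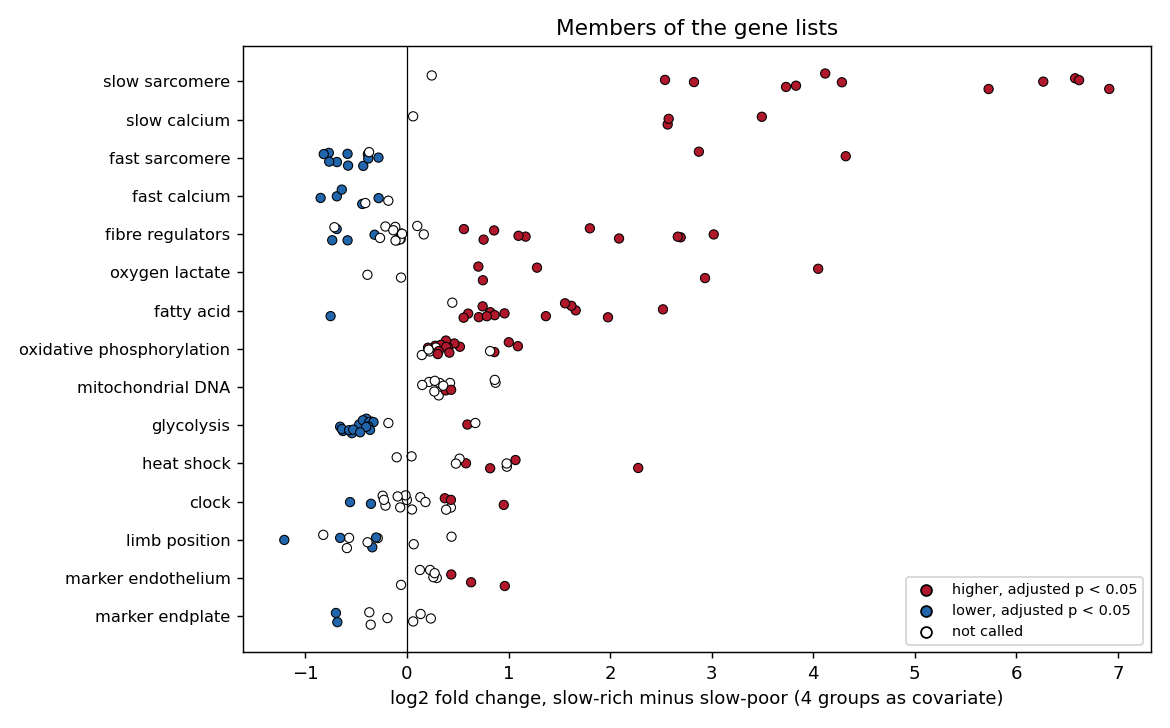
Log2 fold change of slow-rich over slow-poor libraries on the x axis for each tested member of 15 gene lists, 1 row for each list, red where higher and blue where lower at an adjusted p under 0.05 and white where not called; vertical scatter within a row carries no value. Slow contractile members reach 6.91, while the lowest glycolysis member lies at -0.66.

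Oxidative metabolism followed the slow side. Of 7 genes of oxygen storage, lactate and vessel growth, 5 were higher and none was lower, against 9.58% and 7.71% of all genes. Mb, the oxygen store myoglobin, read 301, 348, 346, 343 and 603 CPM against 1571 to 3737 CPM with a median of 2382, a log2 fold change of 2.93 ± 0.25 (adjusted p = 1.99e-05). Ldhb, the heart-type lactate dehydrogenase subunit, read 5.23, 16.3, 15.9, 16 and 32.4 CPM against 140.3 to 488 CPM, a log2 fold change of 4.05 ± 0.45 (adjusted p = 0.000132). Vegfa and Vegfb, growth factors for blood vessels, differed by 0.75 ± 0.09 and 0.70 ± 0.09 (adjusted p = 1.35e-05 and 2.73e-05), with 204 to 234 against 257 to 444 CPM for Vegfa. Slc16a1, the lactate importer MCT1, differed by 1.28 ± 0.18 (adjusted p = 0.000317). The lactate exporter Slc16a3 was not called at -0.39, nor was Car3, the muscle carbonic anhydrase, at -0.06.

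Fatty acid genes were higher in 14 of 16 cases and lower in 1, against 9.58% and 7.71% of all genes. Uptake came first. Lpl, the lipase that frees fatty acids in the vessel, read 179, 135, 127, 145 and 308 CPM against 542 to 1262 CPM (2.52 ± 0.28, adjusted p = 0.000118). Fabp3, the binding protein inside the fibre, differed by 1.98 ± 0.27 and Cd36, the transporter of the membrane, by 1.66 ± 0.24 (adjusted p = 0.000449 and 0.000507), both without overlap. Enzymes of beta-oxidation followed, with Acaa2 at 1.62 ± 0.20, Acadl at 1.37 ± 0.18, Acadvl at 0.96 ± 0.11, Hadhb at 0.86 ± 0.12 and Hadha at 0.74 ± 0.10 (adjusted p from 9.76e-06 to 0.000176). Ucp3, an uncoupling protein of the inner mitochondrial membrane, was the member that was lower, by -0.75 ± 0.16 (adjusted p = 0.00569), with 210.0 to 480.2 CPM against 92.4 to 235 CPM. Cpt1b, the carnitine transferase, was not called at 0.45, and at a median of 3.79 CPM or less its read number was low.

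Of 20 nuclear genes of the respiratory chain, citric acid cycle and energy shuttle, 15 were higher and none lower, against 9.58% and 7.71% of all genes. Their factors were smaller than those of the fatty acid genes. Ckmt2, the mitochondrial creatine kinase, read 624, 782, 932, 539.7 and 792 CPM against 952 to 2155 CPM (1.09 ± 0.14, adjusted p = 4.95e-05). Sdhb, the iron-sulfur subunit of complex II, read 183 to 231 CPM against 300.2 to 483 CPM (0.86 ± 0.10, adjusted p = 1.24e-05). Ndufv1 of complex I, Uqcrc1 of complex III, Cox4i1 of complex IV and Atp5b of the ATP synthase differed by 0.52, 0.47, 0.38 and 0.42 (adjusted p from 0.000116 to 0.00148). Cs, citrate synthase, differed by only 0.21 ± 0.07 (adjusted p = 0.0459, lost in 10 of 16 fits with 1 library left out, up to 0.102). The list median was 0.38.

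Transcripts of mitochondrial DNA were less clear gene by gene. Of 12 tested, mt-Co1 and mt-Cytb were higher, by 0.38 ± 0.12 and 0.43 ± 0.13 (adjusted p = 0.0272 and 0.0252), and the other 10 were not called, beside 9.58% of all genes higher. Both calls were lost when certain single libraries were left out, in 3 and 4 of 16 fits (adjusted p up to 0.133 and 0.146). Some uncalled members had few counts, so the 12 genes are not equally informative. Over the 20 libraries mt-Nd4l had 5 to 32 counts, mt-Nd3 13 to 161 and mt-Atp6 116 to 1315. For mt-Co3 the counts were 171 to 1261 and for mt-Co2 347 to 1066, against 240192 to 502684 for mt-Co1. As a share of each library's counts, all mitochondrial genes together took 10.7, 8.38, 10.4, 7.55 and 10.1% in the slow-poor libraries and 9.43 to 15% in the slow-rich ones. Within groups the difference was 3.63 percentage points (exact two-sided permutation test within groups, 144 relabellings, p = 0.00694, adjusted p = 0.0324 over 14 library values). That p is the smallest the relabelling can give. Without composition scaling 5 of the 12 genes were called higher.

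Glycolysis and glycogen genes went the other way. Of 19 tested, 16 were lower in slow-rich libraries and 1 was higher, against 7.71% and 9.58% of all genes. Pygm, the muscle glycogen phosphorylase that releases glucose units, read 10435, 9490, 11050, 10676 and 10714 CPM against 5589 to 8033 CPM, a log2 fold change of -0.66 ± 0.10 (adjusted p = 6.97e-05). Its activating kinase subunits Phkg1 and Phka1 differed by -0.64 ± 0.09 and -0.63 ± 0.10 (adjusted p = 5.65e-05 and 0.000141). Among the enzymes of the main path, Pkm differed by -0.54 ± 0.10, Gpi1 by -0.47 ± 0.09, Tpi1 by -0.43 ± 0.08, Aldoa by -0.40 ± 0.08 and Gapdh by -0.35 ± 0.08 (adjusted p from 0.000691 to 0.00319). Gpd1, of the glycerol phosphate shuttle, read 642 to 874 CPM against 425 to 601 CPM (-0.57 ± 0.08, adjusted p = 8.63e-05). The higher member was Hk2, the hexokinase that traps glucose, at 0.59 ± 0.10 (adjusted p = 0.000458). The sides did not overlap in 9 of the 16 lower genes, beside 3.28% of all genes in either direction. Pfkm and Pgm1 were not called (-0.18 and 0.67).

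Of 10 heat shock genes, 4 were higher, beside 9.58% of all genes. Hspb7, a small heat shock protein of striated muscle, read 85.0, 76.9, 111, 101 and 93.8 CPM against 258 to 699 CPM (2.28 ± 0.27, adjusted p = 0.000152), the only member without overlap. Hspb6 differed by 1.07 ± 0.24, Cryab by 0.82 ± 0.21 and Dnajb1 by 0.58 ± 0.17 (adjusted p = 0.00912, 0.0179 and 0.019). The Cryab call was lost without knockout exercised replicate 4 (adjusted p = 0.0506) and the Dnajb1 call without vehicle exercised replicate 1, 2 or 4 (up to 0.0827). Hspa1a and Hspa1b, near-identical copies of the inducible HSP70, were not called at 0.98 each. Among 13 immediate early genes 2 were higher and none lower, beside 9.58% and 7.71% of all genes. Atf3, a stress-induced factor, differed by 1.65 ± 0.35 and Jun by 0.41 ± 0.13 (adjusted p = 0.00637 and 0.0337), and the Jun call was lost in 7 of 16 fits with 1 library left out. Fos, Egr1 and Nr4a1 were not called at 1.12, -0.15 and 0.04.

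Position genes of the limb, chosen as a list that is not about metabolism, gave 4 lower and 0 higher among 11 tested, beside 7.71% and 9.58% of all genes. Hoxd10, a homeobox gene of the hindlimb, read 5.91, 6.14, 4.72, 5.65 and 6.57 CPM against 0.874 to 5.21 CPM and differed by -1.21 ± 0.26 (adjusted p = 0.00202). Hoxd9, Hoxa10 and Hoxc10 differed by -0.66, -0.34 and -0.30 (adjusted p = 0.0242, 0.0264 and 0.0366). These 3 calls were lost when certain single libraries were left out, in 4, 4 and 8 of 16 fits, and without composition scaling. Six2, a homeobox gene outside that list, is named below and also fell.

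Of 17 clock genes, 3 were higher and 2 lower, beside 17.3% of all genes called. Ciart, a repressor of the clock, differed by 0.95 ± 0.23 (adjusted p = 0.00543), and Nr1d2 and Per2 by 0.43 ± 0.12 and 0.37 ± 0.12 (adjusted p = 0.0169 and 0.029). The Nr1d2 call was lost without knockout exercised replicate 4 or 5 (adjusted p up to 0.0516) and the Per2 call in 5 of 16 such fits (up to 0.0802). These differences are within groups. Across all libraries Ciart read 0.539 to 8.41 CPM on the slow-poor side and 0.621 to 14.6 CPM on the slow-rich side, and without the group covariate the Per2 value was -0.0016. Arntl, the targeted gene, read 17.8, 15.5, 20.1, 14.9 and 21.3 CPM against 7.88 to 21.2 CPM, and was lower on the slow-rich side by -0.56 ± 0.18 (adjusted p = 0.0341). That call was lost in 9 of 16 fits with 1 library left out, with an adjusted p up to 0.110. Bhlhe41, a repressor also named DEC2, differed by -0.35 ± 0.11 (adjusted p = 0.024), a call lost without vehicle exercised replicate 1, 2 or 3 (up to 0.0915). Clock, Nr1d1 and Cry1 were not called, at -0.24, -0.09 and -0.01.

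Adding log2 Myh7 to a fit of the 4 groups changed both the estimate and the standard error of the study's own contrasts for Arntl, Atf3 and Ppargc1a. Arntl in knockout minus vehicle at rest was 0.24 ± 0.23 with groups alone and 0.32 ± 0.20 with Myh7 added (adjusted p = 0.725 and 0.454). Atf3, exercise minus rest, went from 0.99 ± 0.64 to 1.28 ± 0.53 in vehicle and from 1.13 ± 0.61 to 1.72 ± 0.52 in knockout-labelled libraries. It was not called in either contrast, with or without Myh7. Ppargc1a, exercise minus rest in vehicle, was 1.34 ± 0.56 with groups alone and 1.61 ± 0.33 with Myh7 added (adjusted p = 0.461 and 0.0221). In knockout-labelled animals the same contrast was 0.38 ± 0.55 and 0.96 ± 0.34 (adjusted p = 1.00 and 0.422), and the difference between genotypes was not tested here.

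Over all 20 libraries, the slope on log2 Myh7 with the 4 groups as covariate was called for 2865 of 13559 genes, which is 21.1%. Of these 1603 rose and 1262 fell with Myh7. Of the 2548 genes called between the sides, 2217 (87.0%) were also called for the slope with the same sign, from largely the same libraries. Within groups, log2 levels over the 20 libraries correlated with Myh7 at r = 0.996 for Tnnc1, 0.994 for Tnnt1, 0.985 for Tnni1 and for Mhrt, 0.975 for Myl2 and 0.967 for Myoz2. 1 unnamed gene model stood between Tnnt1 and Tnni1 at 0.992. The points share library and depth, and the values are a description. Myh2 correlated with Myh7 at r = 0.943.

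The libraries between the cuts showed that Myh7 and the oxidative fast program could part. Knockout exercised replicate 1 held 50.1 CPM of Myh7 by the rule's scale, at the lower cut, yet its Myh2 read 3755 CPM and its Mb 3304 CPM, both inside the slow-rich range. Vehicle at rest replicate 4 held 206 CPM of Myh7, yet its Myh2 read 462 CPM and its Mb 611 CPM, close to the highest slow-poor values of 458 and 603 CPM. The remaining 2, knockout at rest replicate 4 and vehicle exercised replicate 5, read 1114 and 1919 CPM of Myh2 and 1293 and 1281 CPM of Mb. The order of these 4 by Myh7 was thus not their order by Myh2 or Mb.

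The called genes as a whole were placed in the same way. For each gene higher on the slow-rich side, the position of a library between its group's slow-poor mean (0%) and slow-rich mean (100%) was computed on the log2 scale. Knockout exercised replicate 1 had a median position of 86.6% over 1411 higher genes, vehicle exercised replicate 5 of 40.7% and vehicle at rest replicate 4 of 20.5% over 1379. For lower genes the medians were 85.2, 35.7 and 5.75%. The library with the least Myh7 of the 3 thus had the median nearest to the slow-rich side. The position at rest rests on 1 slow-poor library. Knockout at rest replicate 4 had no slow-poor library in its group and was not placed. Tnnt1 separated the 2 libraries with less Myh7 from the 2 with more, though not within the lower pair: it read 21.7 and 15.5 CPM in the 2 libraries at 50 to 60 CPM of Myh7, and 42.7 and 49.9 CPM in the 2 above.

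In a fit with both log2 Myh7 and log2 Myh2 as slopes and the groups as covariate, given as a description because the 2 are correlated, the slopes differed between genes, also within a list. Tnnc1 had a slope of 0.88 ± 0.03 on Myh7 and 0.10 ± 0.05 on Myh2, Tnnt1 of 0.85 ± 0.04 and 0.16 ± 0.06, and Atp2a2 of 0.40 ± 0.11 and 0.04 ± 0.19. Mb had -0.00 ± 0.05 on Myh7 and 0.59 ± 0.09 on Myh2, Esrrb had 0.04 ± 0.06 and 0.64 ± 0.10, Ppara had -0.06 ± 0.07 and 0.63 ± 0.12, and Lpl had -0.03 ± 0.09 and 0.55 ± 0.14. Myoz2 and Ldhb had slopes on both, 0.21 ± 0.05 and 0.60 ± 0.07 for Myoz2 and 0.16 ± 0.06 and 0.64 ± 0.09 for Ldhb. Compared with their signs, 7 of 12 slow sarcomere slopes were larger on Myh7 and 5 on Myh2. Myl6b is among the 7 with 0.24 ± 0.06 on Myh7 and -0.36 ± 0.10 on Myh2, so by size its slope on Myh2 was larger. The 5 were Myoz2, Myl3 (0.42 ± 0.10 and 0.67 ± 0.17), Ankrd2 (0.10 ± 0.06 and 0.64 ± 0.09), Csrp3 (-0.02 ± 0.09 and 0.89 ± 0.15) and Mybpc1 (-0.04 ± 0.08 and 0.56 ± 0.12). Of the 4 slow calcium genes, Atp2a2 alone had the larger slope on Myh7, while Casq2 had 0.13 ± 0.06 and 0.38 ± 0.10 and Pln 0.08 ± 0.14 and 0.54 ± 0.23.

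**Figure D4:**
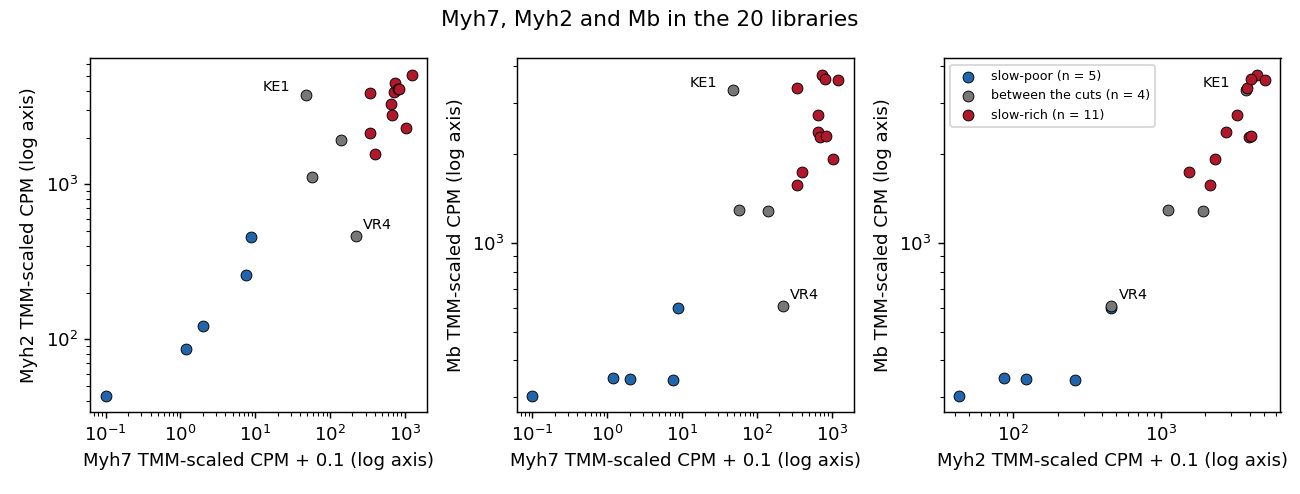
TMM-scaled CPM of Myh2 against Myh7, Mb against Myh7 and Mb against Myh2 on log axes, 1 point for each of the 20 libraries, coloured by side. The 2 labelled libraries between the cuts, knockout exercised replicate 1 (KE1) and vehicle at rest replicate 4 (VR4), lie off the trend with Myh7 but on the trend of Mb with Myh2.

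Among the 12 largest rises by the naming rule, 3 were predicted or unnamed gene models, 1 was the long noncoding RNA Mhrt and 5 were the slow troponins and light chains given above. Mhrt and 1 of the models share exon positions with Myh7 on the opposite strand, and since the strandedness of the counting is not given in the sources used here, their reads cannot be told apart from those of Myh7. Lgi1, a secreted protein known from neurons, had 0 counts in 4 slow-poor libraries and 1 count in the remaining one, and read 0.995 to 5.01 CPM on the slow-rich side. Its slow-rich mean was at least 8.20-fold higher than the level of 3 counts per library (adjusted p = 4.41e-06). Cyfip2, a regulator of actin branching, read 0, 0.647, 0.269, 0.222 and 1.29 CPM against 9.06 to 29.3 CPM (5.13 ± 0.59, adjusted p = 0.000124). Dach2, a cofactor that represses myogenin in active muscle, read 0 to 0.431 CPM against 2.11 to 9.41 CPM (4.93 ± 0.63, adjusted p = 6.5e-05). None of these 3 overlapped between the sides. Lgi1 and Dach2 passed the filter against low counts only through slow-rich libraries, so their calls and lack of overlap are given as a description.

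The 12 largest falls were smaller and overlapped more, with 3 unnamed models among them. Mybph, a thick filament protein related to myosin-binding protein C, read 149, 845, 619, 88.3 and 273 CPM against 28.5 to 351 CPM (-2.20 ± 0.53, adjusted p = 0.0155). It was high in the 2 knockout-labelled slow-poor libraries, and Adora1, the adenosine A1 receptor gene on the opposite strand, shares exon positions with it and moved by -2.16 ± 0.52. Tph1, an enzyme of serotonin synthesis, read 9.20, 6.47, 7.41, 4.32 and 10.6 CPM against 0.544 to 4.10 CPM without overlap (-1.79 ± 0.33, adjusted p = 0.00103). Srrm4, a splicing factor known from neurons, differed by -1.79 ± 0.32 and its opposite-strand transcript Srrm4os by -2.18 ± 0.38 (adjusted p = 0.000454 and 0.00109), and their reads cannot be told apart either. Cdh4, a cadherin, differed by -1.65 ± 0.41 and Fam83d, a spindle protein, by -1.64 ± 0.32 (adjusted p = 0.0166 and 0.00186).

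Fam174b and Six2 were the least stable of the named falls. Fam174b, a membrane protein gene, read 7.84 and 11.5 CPM in 2 slow-poor libraries and 1.11 to 2.26 CPM in the others, against 0.326 to 2.20 CPM (-2.33 ± 0.73, adjusted p = 0.046). Its call was lost in 12 of 16 fits with 1 library left out (adjusted p up to 0.128). Six2, a homeobox factor, read 22.7, 17.1, 9.97, 39.8 and 28.8 CPM against 2.50 to 22 CPM (-1.57 ± 0.46, adjusted p = 0.0374), and its call was lost in 11 of 16 (adjusted p up to 0.126).

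Some further genes were chosen after their values were seen. Bdh1, the ketone body dehydrogenase of mitochondria, read 1.36, 2.91, 2.29, 4.77 and 9.80 CPM against 39.9 to 109.5 CPM (4.21 ± 0.43, adjusted p = 8.51e-05). Myom3, an M-band protein, and Homer2, a scaffold protein, differed by 3.81 ± 0.41 and 3.31 ± 0.41 (adjusted p = 0.000113 and 0.000247). Prkag3, the gamma 3 subunit of AMP kinase that belongs to glycolytic muscle, read 276, 292, 407, 384 and 237 CPM against 87.1 to 227 CPM (-1.27 ± 0.21, adjusted p = 0.00109). Pfkfb3, an activator of phosphofructokinase by its product, differed by -1.32 ± 0.27 (adjusted p = 0.0062). All 5 separated the sides without overlap.

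Markers of other cell types were counted beside the 17.3% of all genes called, 9.58% higher and 7.71% lower. No marker list had a member at 0 in all 20 libraries. Lists for fat cells, nerve, blood, tendon, immune cells, smooth muscle and satellite cells had 0 called members of 8, 8, 5, 8, 9, 5 and 3 tested by edgeR. Of these 46 genes 5 had an unadjusted p under 0.05 by edgeR, beside 4451 of all 14738 genes tested, a larger share. DESeq2 called 3 of the 46 and limma-voom 2, Lyz2 among them in both. List medians were -0.91 for fat cells and 0.63 for tendon on the log2 scale, and between -0.36 and 0.32 for the others with 0 called. The fibroblast list had 1 called of 8, Pdgfra at 0.41 (adjusted p = 0.0403, lost in 6 of 16 fits with 1 library left out). The endothelial list had 3 of 9 higher, namely Kdr, Tie1 and Flt1 at 0.96, 0.63 and 0.44 (adjusted p = 0.000107, 0.0255 and 0.0186). The other 6 were not called, among them the receptor gene Tek at 0.26 (adjusted p = 0.309), Pecam1, Cdh5 and Vwf. The Flt1 call was lost without knockout exercised replicate 4 or 5 (adjusted p up to 0.0566) and the Tie1 call in 3 of 16 such fits (up to 0.0646). The summed blood level was 57.6, 48.1, 63.7, 58.7 and 366 CPM on the slow-poor side and 73.2 to 286 CPM on the slow-rich side, so that 4 of 5 slow-poor libraries lay below every slow-rich one and vehicle exercised replicate 4 above them all. Its difference within groups was 0.56 on the log2 scale (exact permutation p = 0.340, adjusted p = 0.573) and 1.08 without that library (exact permutation p = 0.0139). The summed endothelial level was 144, 194, 162, 223 and 216 CPM on the slow-poor side and 210.1 to 262 CPM on the slow-rich side (exact permutation p = 0.0208, adjusted p = 0.0583).

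When the endothelial sum was added to the fit as a covariate, an alternative chosen after seeing the data, 292 genes were called, 281 of them also called without it. In that fit the log2 fold change was 5.79 for Tnnt1, 3.02 for Atp2a2, 3.01 for Myh2 and 2.36 for Mb, all still called. Myh4 at -0.53 (adjusted p = 0.0725) and Kdr at 0.75 (adjusted p = 0.057) were not called, and Flt1 was at -0.00098. Kdr and Flt1 are themselves members of the endothelial sum, so their smaller values in that fit are partly built in. The sum also went with the side, so the fit cannot separate the 2, and the lower number of calls decides nothing about endothelium. Of 8 genes of the motor endplate, 2 were called lower, beside 7.71% of all genes. Ache, which breaks down acetylcholine, differed by -0.69 ± 0.09 and Chrne, the adult receptor subunit, by -0.70 ± 0.12 (adjusted p = 3.83e-05 and 0.000347). The other 6 were not called and went both ways, from -0.37 for Musk to 0.23 for Dok7. The summed endplate level was 158, 196, 221, 135 and 138 CPM against 112 to 151 CPM (exact permutation p = 0.00694, adjusted p = 0.0324). The sums of 196 and 221 CPM are those of the knockout exercised libraries, in which the list member Chrna1 read 40.2 to 65.4 CPM.

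**Figure D5:**
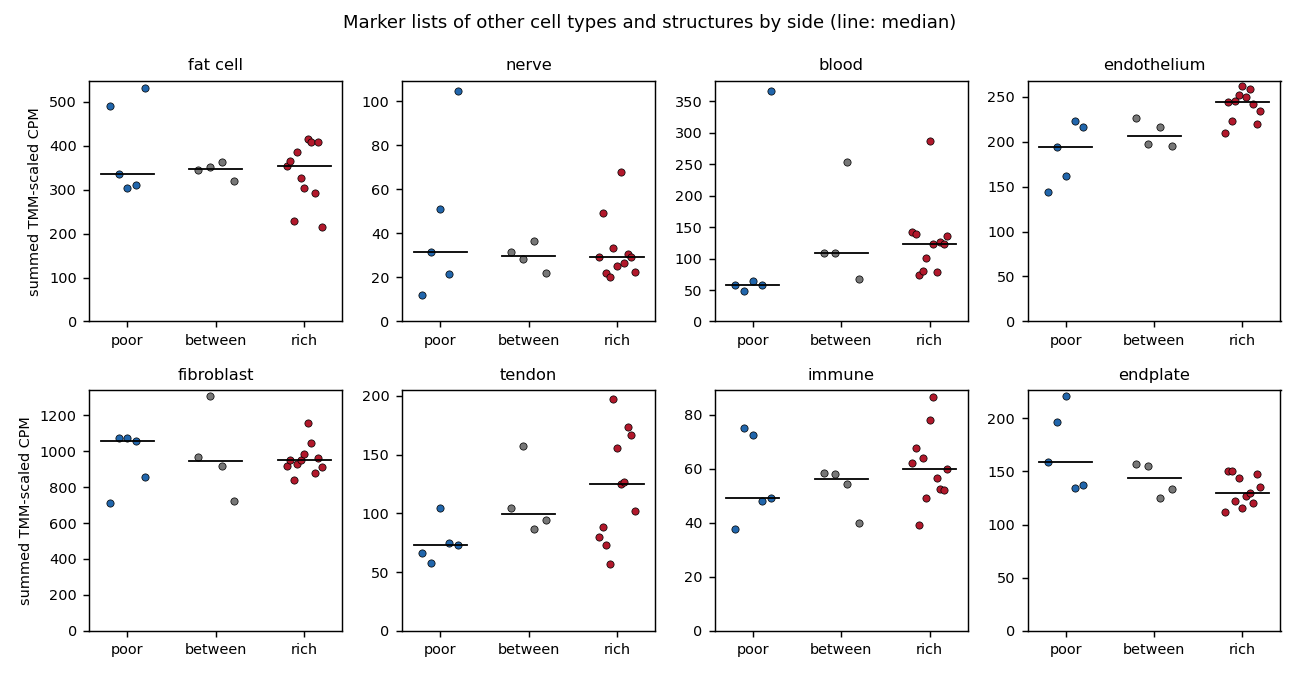
Summed TMM-scaled CPM of 8 marker lists of other cell types and structures, 1 point for each library, by side (5 slow-poor, 4 between, 11 slow-rich), with a line at each median. The endothelial sums are 144 to 223 CPM on the slow-poor side and 210.1 to 262 CPM on the slow-rich side, while fat cell, nerve and immune ranges overlap widely and 4 of 5 slow-poor blood sums lie below the slow-rich ones.

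Other library values were compared in the same way. The 10 most abundant genes took 27.7, 26.1, 28.2, 28.2 and 27.0% of counts on the slow-poor side and 23.4 to 26.4% on the slow-rich side, a difference of -2.71 points within groups (exact permutation p = 0.00694, adjusted p = 0.0324). Slow-rich libraries had more genes detected, by 613.5 within groups (exact permutation p = 0.0208, adjusted p = 0.0583). Total counts did not pass the test (exact permutation p = 0.646). The part of these library values in the gene results was not tested beyond the endothelial covariate.

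The association with the side differed by genotype label for 6 genes, which is 0.0407% of 14738, with 1148 at an unadjusted p under 0.05. Mid1ip1, a regulator of lipid synthesis, was 1.99 ± 0.30 more positive in knockout-labelled libraries (adjusted p = 0.0195). There it read 1.62 to 2.69 CPM on the slow-poor and 8.57 to 14.4 CPM on the slow-rich side, against 33.1 to 41.4 and 48.4 to 65.8 CPM with vehicle. Chrna1, the alpha subunit of the muscle acetylcholine receptor, differed the other way by -1.71 ± 0.28 (adjusted p = 0.0254), with 40.2 to 65.4 CPM in the 2 slow-poor knockout-labelled libraries and 9.77 to 26.3 CPM in all others of both sides. Both knockout-labelled slow-poor libraries were taken after exercise, so this difference rests on 2 libraries. DESeq2 called 24 genes and limma-voom 0 for the same term.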

How the data were processed

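Total RNA of mouse gastrocnemius was sequenced in 20 libraries, in 4 groups of 5. Counts per gene symbol were deposited by the authors in 1 table of 53311 rows, unnormalized by their values, whole numbers with totals of 8045154 to 11269812. Per the labels' protocols, Trizol and a Qiagen kit yielded the RNA and an Illumina kit the libraries. STAR 2.7.8a, Partek and DESeq2 are named, and both mm10 and GRCm39 appear as builds, per the submitters' processing notes; the annotation and the strandedness of counting are not given in the sources used here. Repeated symbols (106 rows) were kept as separate rows, and 27 symbols looked like dates.

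Libraries were placed by the Myh7 rule given in the report, and groups and replicate numbers came from the labels. edgeR 4.0.16 in R 4.3.3 fitted the sides with TMM scaling, a low-count filter (filterByExpr, minimum count 10), the 4 groups as covariate and robust quasi-likelihood tests, with Benjamini-Hochberg adjustment over all genes tested and a threshold of 0.05. The filter was set by group and side, so a gene with few counts on 1 side could enter through the other side alone. Differences are log2 fold changes. Library values were tested by exact permutation of the sides within groups. Transcript lengths and exon overlaps came from GENCODE, and promoter windows from RefSeq (GRCm38.p6). Named genes were the 12 largest rises and 12 largest falls among called genes with a mean log2 CPM of at least 1, members of 25 gene lists (268 genes), the genes beside Myh7 and Arntl; unnamed models were counted only. Genes outside this rule are marked as such. The members, lists and tests were chosen with earlier results of these data known. On simulated data for 14739 genes, the fit recovered 69.8% of 96 genes changed by 1 on the log2 scale and 93.3% of 104 changed by 2. Of 177 calls 7.35% were false, more than the threshold of 0.05 aims at. Only 200 genes were changed there and each gene was drawn independently. The data had far more calls and genes that moved together, so these rates may not hold for them. DESeq2 1.42.0, limma 3.58.1 (voom), other scalings, filters and sample subsets were tried as alternatives.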

Additional observations from a re-analysis of the deposited data

Results flagged for a closer look

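Within the 5 slow-poor libraries, 5 genes had 1 library set apart from the others (Dixon's test at the 95% level). The gap was more than 0.71 of the whole range on the log2 scale, while the levels below are CPM. Chance alone flags about 1 in 20 such groups, and 112 combinations of gene and side were examined. Vehicle exercised replicate 4 was the highest for Lgi1, at 0.108 CPM from 1 count with the others at 0, and for Mb, at 603 CPM with the others at 301 to 348 CPM. Vehicle exercised replicate 2, the library with no Myh7 count, was the lowest for Csrp3, at 1.70 CPM with the others at 4.74 to 6.87 CPM, and the highest for Tnni2, at 8539 CPM with the others at 6687 to 7103 CPM. Vehicle at rest replicate 5 was the lowest for Pvalb, at 7616 CPM with the others at 9033 to 9456 CPM.

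The difference between sides was itself different between knockout-labelled and vehicle libraries for 6 genes by the interaction term of the same fit. On the log2 scale this term, knockout-labelled minus vehicle, was 1.99 for Mid1ip1, 1.64 for Sorbs3 and 0.93 for Mreg. It was -1.30 for Tnfaip2, -1.71 for Chrna1 and -1.15 for Ank2 (adjusted p from 0.0195 to 0.0396). Sorbs3, a vinculin-binding adaptor, read 15.8 to 22.8 CPM in the slow-poor and 24.0 to 49.4 CPM in the slow-rich knockout-labelled libraries, and 124 to 178 against 70.9 to 130.5 CPM with vehicle. Tnfaip2 read 58.6 to 79.4 against 27.8 to 49.3 CPM in knockout-labelled libraries, and 26.4 to 31.3 against 26.1 to 35.4 CPM with vehicle.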

How the results depend on the processing

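The count of 2548 genes called between the sides stayed within 1.5 times under other scalings, DESeq2 (2619), limma-voom (2558), no low-count filter (2720) and the replicate block (1837). It was 1690 for the slope on log2 Myh7 with the replicate block, 1449 in vehicle libraries alone, 704 in knockout-labelled libraries alone, 7 at rest alone, 1304 at an adjusted p under 0.01, 517 when a log2 fold change of at least 1 was also asked, and 292 with the endothelial covariate. That covariate, leaving out Myh4 and keeping only the 3 groups with both sides were chosen after seeing the data. Leaving out 1 library at a time gave 1843 to 2638 calls. The slope on log2 Myh7 was called for 2865 genes, for 1690 with the replicate block and for 2196 to 3033 with 1 library left out. The labels give no pairing of libraries by replicate number. Among 30 same-numbered pairs 14 correlated above 0.1 (from -0.399 to 0.383), and 4 of 20 libraries correlated best with their own number. These values cannot decide whether the numbers pair libraries, because differences that go with Myh7 also enter the correlations. The genotype interaction was called for 6 genes, 24 by DESeq2, 0 by limma-voom, 86 without a filter and 0 to 22 with 1 library left out.

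Leaving out 1 library, the within-group difference ran from 2.78 to 4.08 points for the mitochondrial share, -3.07 to -2.36 points for the 10 most abundant genes and 539 to 689 for genes detected. On the log2 scale it ran from 0.289 to 0.495 for the endothelial sum, -0.412 to -0.299 for the endplate sum, 0.186 to 1.08 for blood and 0.0383 to 0.271 for smooth muscle. Blood and smooth muscle fell under an unadjusted 0.05 only without vehicle exercised replicate 4, and without vehicle at rest replicate 5 fewer relabellings remained, so that the other differences missed it. The endothelial sum also missed it without vehicle exercised replicate 1 (0.372), 2 (0.289) or 3 (0.366). Single genes that were called in the comparison above or in the alternative changed direction in 3 cases. Fam174b was 0.497 at rest alone, Per2 -0.0016 without the group covariate and Flt1 -0.00098 with the endothelial covariate, a sum that includes Flt1. Of the other single-gene values, 594 lost the call, 234 gained it and 9822 kept their call or stayed uncalled, and the cause was not tested. Changes of direction in genes uncalled both times were not counted. Per1, for example, changed direction in 9 of 21 settings. Of the list counts, 5 moved by over 1.5 times and 145 did not: without composition scaling the lower calls were 0 for clock genes, 2 for regulators and 1 for limb position and the mitochondrial DNA list had 5 higher, and upper-quartile scaling gave 1 lower nerve gene. Genes at a few counts, such as Lgi1, Myh6 and Myh13, are limited by depth.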
